A study of Mus musculus with 15 samples.

Results

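The death receptor pathway was followed through 8 of its genes, *Fas, Tnfrsf10b, Fadd, Casp8, Cflar, Ripk1, Bid* and *Xiap*, in A20 parental cells and 4 *Foxp1* CRISPR clones. The genes were chosen by name from the 41388 mouse genes listed in every library, of which 40254 were matched to a symbol by their Ensembl identifier. All 8 were among the 13904 genes that passed the filter on low counts. Their lowest count in any library was 328 (*Fadd*) and their highest 8534 (*Xiap*). *Cflar* was placed among them because it was called lower in clone E7.2, so that for these genes E7.2 against parental cells is a description with no p value. The comparisons of E6.1, E6.2 and E7.1 use the same 3 parental libraries as the one that chose *Cflar*, and for that gene they are not independent of the choice.

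The A20 line was derived from a B-cell lymphoma of BALB/c origin. RNA was sequenced from the parental line and from clones E6.1 and E6.2, made with a guide to exon 6 of *Foxp1*, and E7.1 and E7.2, made with a guide to exon 7. *Foxp1* encodes a forkhead transcription factor. A20 cells were electroporated with a plasmid that carries Cas9 and the guide, sorted for GFP and grown into clones from single cells. Each edited line is thus a single clone. A difference between a clone and the parental line cannot be told apart from clonal variation, or from these steps, which the paper describes for the edited cells only. There were 3 libraries per line and 15 in all, from separate passages of the same cells, and the p values measure the spread between passages.

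Death receptors are membrane proteins of the TNF receptor family that carry a cytoplasmic death domain. When a ligand binds, FADD brings caspase-8 to the receptor and the caspase is activated there. c-FLIP, the product of *Cflar*, resembles caspase-8 without a working catalytic site and controls how far this activation proceeds, while BID carries the signal to mitochondria once caspase-8 has cut it. In germinal centre B cells Fas is a well known route of removal, and its loss is a known event in lymphomas.

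Between 26328054 and 39181530 read pairs were counted per library, and 3 counts, the floor for detection, corresponded to 0.0751 to 0.118 CPM, the count scaled to the normalized library size, for counting error only. Parental cells had 138 ± 32.7 CPM (SD, n = 3) of *Foxp1*, the targeted gene. It read 104 ± 4.60 CPM in E6.1 and 106 ± 2.38 in E6.2, and in the E7 clones 56.8 ± 13.0 (E7.1) and 43.0 ± 8.19 (E7.2). Its fall was called in both E7 clones (Benjamini-Hochberg adjusted p = 0.00688 and 0.00116, edgeR quasi-likelihood test) and not in the E6 clones (0.765 and 0.417). Protein was not measured by these counts. For every clone the paper reports a frameshift with a premature stop codon and, by Western blot, depleted Foxp1 protein. Markers of B cells summed to between 3542 and 4998 CPM. Those of T cells, natural killer cells, myeloid cells, and stroma with epithelium summed to at most 0.792, 3.81, 8.22 and 4.06 CPM. Replicate 3 of E6.2 and replicate 3 of E7.2 stood apart, since their deviations from the mean of their own line correlated across genes with r = 0.426, the highest of 90 pairs of libraries from different lines. For the 8 genes, fold changes against parental cells that moved by over 1.5 times, and calls that differed, are therefore also given without both. For the other genes of the pathway, only the counts of calls are given without both. In bulk RNA, fewer cells that express a gene and less RNA per cell cannot be told apart.

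Promoter sequence is shown for the 3 genes on which the results turn, *Cflar*, *Fas* and *Bid*, as the 250 bases before the RefSeq start on the coding strand of GRCm38.p6. Capitals mark GGGCGG, the core of the GC box that Sp family factors recognise. The sequences are of chr1:58711241-58711490 on the plus strand, chr19:34290409-34290658 on the plus strand and chr6:120916825-120917074 on the minus strand.
Cflar: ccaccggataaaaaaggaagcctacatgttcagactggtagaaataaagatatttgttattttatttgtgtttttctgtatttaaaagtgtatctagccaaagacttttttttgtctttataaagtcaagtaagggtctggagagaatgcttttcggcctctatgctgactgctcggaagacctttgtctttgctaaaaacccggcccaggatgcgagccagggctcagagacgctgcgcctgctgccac
Fas: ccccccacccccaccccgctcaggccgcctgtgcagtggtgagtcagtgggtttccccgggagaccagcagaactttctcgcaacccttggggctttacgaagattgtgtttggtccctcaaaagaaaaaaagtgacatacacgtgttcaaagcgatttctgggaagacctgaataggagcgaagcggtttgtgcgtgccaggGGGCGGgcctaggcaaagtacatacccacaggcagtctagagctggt
Bid: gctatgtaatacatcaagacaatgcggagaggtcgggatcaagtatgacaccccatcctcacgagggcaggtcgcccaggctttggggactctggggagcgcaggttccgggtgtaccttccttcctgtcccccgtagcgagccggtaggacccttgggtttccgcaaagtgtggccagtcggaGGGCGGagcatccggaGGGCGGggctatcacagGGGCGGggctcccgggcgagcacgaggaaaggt

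RefSeq promoters were found for 7 of the 8 genes, with 10 promoters in all. The forkhead consensus TGTTTAC was searched on both strands and lay in 0 of these 10 promoters and in 3.17% of all 32851 promoters of the same length. The looser TGTTTNC, which includes it, was found in a promoter of *Ripk1* and in 2 promoters of *Xiap*, against 17.8% of all promoters. GGGCGG lay at 3 places in *Bid*, 66, 50 and 33 bases before the start, once in *Fas*, 47 bases before the start, and nowhere in the *Cflar* window, against 32.7% of all promoters. It also lay, on either strand, in promoters of *Fadd*, *Ripk1* and *Xiap*, though not in every *Xiap* promoter, and not in that of *Casp8*. Such matches were thus not particular to *Bid* and *Fas*. The *Cflar* window had 42.8% G and C and 7 CpG, the *Fas* window 56.4% and 11, and the *Bid* window 63.6% and 18. These are matches of letters only.

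Levels were first ordered in parental cells, per kilobase of listed exon. *Fas* stood highest at 44.3 ± 12.2 CPM per kilobase (SD, n = 3), followed by *Xiap* at 23.8 ± 1.27. *Bid* at 16.8 ± 2.12 and *Casp8* at 14.3 ± 1.11 followed, and the libraries of this pair overlapped. Below them came *Tnfrsf10b* at 6.89 ± 0.471, *Cflar* at 5.70 ± 0.250, *Fadd* at 3.46 ± 0.271 and *Ripk1* at 2.72 ± 0.250, and no other neighbours in this order overlapped. The length is the union of all exons in the annotation, 12669 bp for *Cflar* and 2893 bp for *Casp8*, so that a gene with long alternative exons reads low on this scale.

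**Figure D1:**
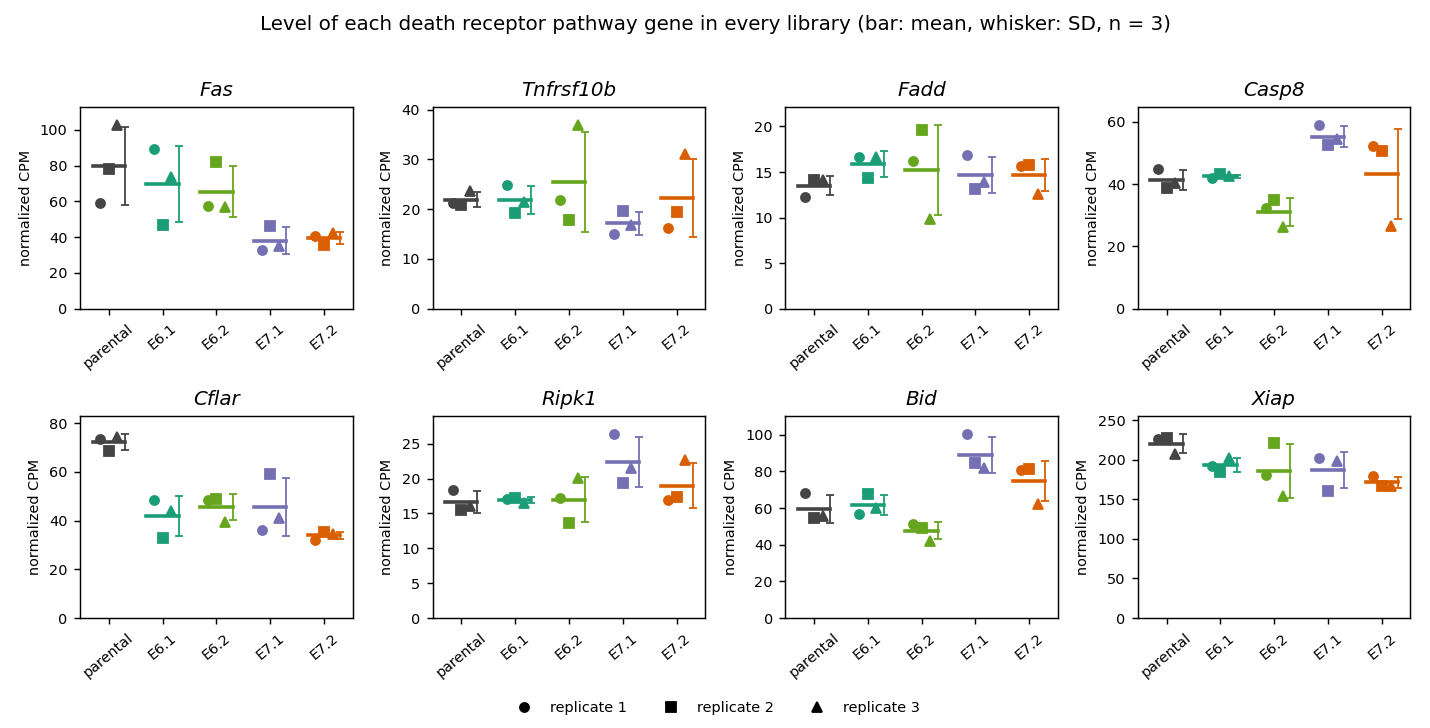
Normalized CPM (y axis, from 0) of each of the 8 genes in every library of the 5 lines (x axis), with a marker shape per replicate number, the mean as a bar and the SD as a whisker. All 12 clone libraries of *Cflar*, a gene chosen on the parental and E7.2 libraries, lay at or below 59.3 CPM. All 3 parental libraries lay at or above 68.6 CPM, whereas *Bid* was highest in E7.1 and lowest in E6.2.

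*Cflar* (ENSMUSG00000026031, chr1:58711508-58758884, plus strand) had lower counts in every library of every clone. The parental libraries read 73.5, 68.6 and 74.5 CPM. E6.1 had 48.6, 33.0 and 44.1 CPM, E6.2 had 48.3, 48.7 and 39.3, E7.1 had 36.3, 59.3 and 41.2, and E7.2 had 32.2, 35.3 and 34.3. None of the 12 clone libraries reached the lowest parental library, as for 0.885% of the tested genes, and none of the 9 libraries of E6.1, E6.2 and E7.1 did, as for 1.19%. The parental libraries, and in the first count those of E7.2, chose the gene, so that nothing is read from these shares.

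The log2 fold change of *Cflar* was -0.78 for E6.1 (SE 0.18, 95% confidence interval -1.17 to -0.40), -0.67 for E6.2 (SE 0.18, -1.06 to -0.28) and -0.66 for E7.1 (SE 0.18, -1.05 to -0.28). The clones thus held 0.581, 0.629 and 0.631 times the parental level. After adjustment over all genes none of these was called (adjusted p = 0.118, 0.116 and 0.0727 by the edgeR quasi-likelihood test). DESeq2's Wald test called all 3 (adjusted p = 0.0115, 0.0446 and 0.0228), as did edgeR's likelihood ratio test (0.0156, 0.0441 and 0.0291). Without both deviating libraries the values were -0.78, -0.58 and -0.64, and E7.1 was called (adjusted p = 0.0632, 0.144 and 0.0311). E7.1 was also called when its own replicate 2 (-0.90, adjusted p = 0.0428) or replicate 3 of E6.2 (-0.64, adjusted p = 0.0464) was left out. In E7.2 the log2 fold change was -1.09, and -1.06 without both deviating libraries.

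A test over parental, E6.1, E6.2 and E7.1 together, which leaves E7.2 out of the contrast, gave *Cflar* an adjusted p of 0.0364 (edgeR quasi-likelihood F-test). It shares the parental libraries with the comparison that chose the gene and is not independent of it. The call was not stable to the removal of single libraries. It was held in 6 of 15 such fits and lost without parental replicate 1, 2 or 3 (adjusted p = 0.0802, 0.0784 and 0.104), E6.1 replicate 3 (0.0737), E6.2 replicate 1 (0.0513), E7.1 replicate 1 or 3 (0.0635 and 0.0809) and E7.2 replicate 1 or 2 (0.0531 and 0.0528). Among E6.1, E6.2 and E7.1 the clones were close to each other. The log2 difference was 0.11 for E6.2 minus E6.1 (95% confidence interval -0.27 to 0.50), 0.12 for E7.1 minus E6.1 (-0.26 to 0.51) and 0.01 for E7.1 minus E6.2 (-0.38 to 0.39), and these intervals allow differences of up to about 0.5 on the log2 scale. These 3 pairs hold neither the parental nor the E7.2 libraries, and without both deviating libraries the values were 0.20, 0.14 and -0.06. The counts are of the whole gene, so the long and short forms of c-FLIP, which differ in function, were not separated.

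*Casp8* (ENSMUSG00000026029, chr1:58795374-58847503, plus strand), the initiator caspase, lies 36489 bases beyond the end of *Cflar* on the same strand and had another order of lines. Parental libraries had 44.9, 38.8 and 40.2 CPM and E6.1 had 42.0, 43.1 and 42.5. E6.2 lay below both with 32.4, 34.8 and 26.2 CPM, E7.1 above both with 58.9, 52.5 and 54.3, and E7.2 was split into 52.3, 50.7 and, in replicate 3, 26.5. The log2 fold change against parental cells was 0.04 for E6.1, -0.41 for E6.2 (95% confidence interval -0.84 to 0.03) and 0.42 for E7.1 (-0.01 to 0.85), with adjusted p values of 0.995, 0.405 and 0.262 by the edgeR quasi-likelihood test. Without both deviating libraries the values of E6.2 and E7.1 were -0.30 and 0.44 and that of E7.1 was called (adjusted p = 0.139 and 0.0115). It was called as well without E7.2 replicate 3 alone (0.44, adjusted p = 0.0498). In E7.2 the value was 0.06, and 0.35 without both.

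The number of *Cflar* counts per *Casp8* count, in which library depth cancels, was lower in the clone libraries. It was 1.75 ± 0.109 (SD, n = 3) in parental cells. The E6 clones had 0.988 ± 0.201 (E6.1) and 1.46 ± 0.0555 (E6.2), and the E7 clones 0.834 ± 0.265 (E7.1) and 0.870 ± 0.372 (E7.2). The lowest parental library was at 1.64 and the highest clone library at 1.499. The parental and E7.2 libraries chose *Cflar*, so that nothing is read from this separation. On the log2 scale the difference from parental cells was -0.85 for E6.1, -0.26 for E6.2, -1.12 for E7.1 and -1.09 for E7.2, and no test was made of this ratio. Without both deviating libraries, an alternative chosen after the data were seen, E6.2 was at -0.28 and E7.2 at -1.42. Replicate 3 of E7.2, at 1.30, stood above the other 2 libraries of its line at 0.616 and 0.696, through its low *Casp8*.

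**Figure D2:**
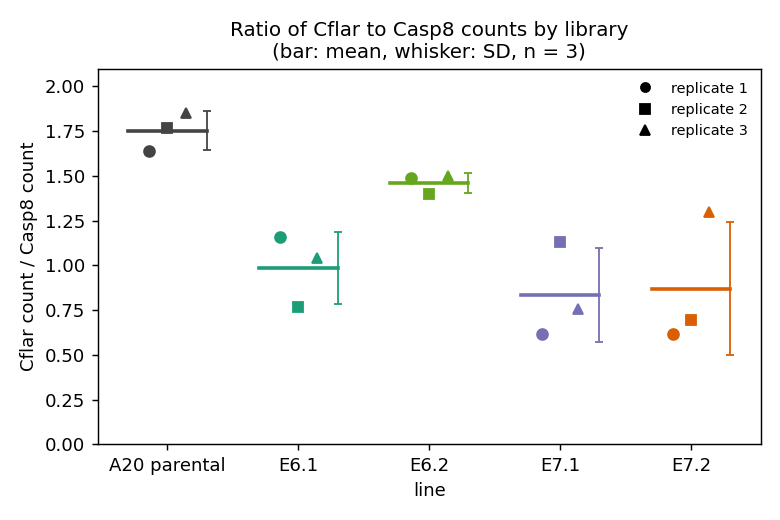
*Cflar* counts divided by *Casp8* counts (y axis, from 0) in each library of the 5 lines (x axis), with a marker shape per replicate number, the mean as a bar and the SD as a whisker. The 3 parental libraries sit between 1.64 and 1.85 and all clone libraries at or below 1.499, with E6.2 nearest to the parental line. *Cflar* was chosen on the parental and E7.2 libraries, so that nothing is read from this separation.

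*Fas* (ENSMUSG00000024778, chr19:34290659-34327770, plus strand), the receptor for Fas ligand, was low in both E7 clones and near the parental level in both E6 clones. Parental libraries were spread widely at 58.9, 77.8 and 103 CPM. E6.1 had 89.0, 46.7 and 73.4 CPM and E6.2 had 57.4, 81.9 and 56.8, while E7.1 had 32.6, 46.5 and 35.0 and E7.2 had 40.8, 35.9 and 42.3. All 6 E7 libraries lay under the other 9, as did 0.554% of the tested genes, although the highest E7 library and the lowest E6.1 library nearly touched.

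The log2 fold change of *Fas* was -1.07 (SE 0.25, 95% confidence interval -1.60 to -0.54) in E7.1, -0.19 (SE 0.25) in E6.1 and -0.29 (SE 0.25) in E6.2. None was called (adjusted p = 0.0522, 0.978 and 0.633 by the edgeR quasi-likelihood test), and E7.1 lay just beyond the threshold of 0.05. It was called by DESeq2's Wald test (-1.06, adjusted p = 0.00355), by edgeR's likelihood ratio test (0.00442), by the newer quasi-likelihood method (0.0478), with no filter on low counts (0.0162) and without both deviating libraries (-1.04, adjusted p = 0.0192). Among single libraries, the call was also made without parental replicate 1 (-1.23, adjusted p = 0.0169), E6.1 replicate 2 (0.0489), E6.2 replicate 3 (0.0299) or E7.2 replicate 3 (0.0407). In E7.2 the value was -1.01, and -1.02 without both deviating libraries. Between clones, E7.1 was lower than E6.2 by the test of the difference itself (-0.78, SE 0.25, adjusted p = 0.0451), and E7.1 was not called against E6.1 (-0.87, SE 0.25, adjusted p = 0.0648). The call against E6.2 was lost in 9 of the 15 fits with 1 library removed, with adjusted p values up to 0.163 without E7.1 replicate 1. The others were those without parental replicate 2 (0.0625), E6.1 replicate 3 (0.0656), E6.2 replicate 1 or 2 (0.0717 and 0.138), E7.1 replicate 2 or 3 (0.0506 and 0.131) and E7.2 replicate 1 or 2 (0.0601 and 0.0589).

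*Tnfrsf10b* (ENSMUSG00000022074, chr14:69767472-69784403, plus strand), the mouse TRAIL receptor, showed no called difference. Parental libraries had 21.2, 20.8 and 23.6 CPM and E6.1 had 24.8, 19.3 and 21.4. E7.1 had 15.1, 19.7 and 16.7 CPM, all below the parental libraries, with a log2 fold change of -0.35 (95% confidence interval -0.91 to 0.22, adjusted p = 0.494 by the edgeR quasi-likelihood test). E6.2 had 21.8, 17.8 and 36.9 CPM and E7.2 had 16.2, 19.4 and 31.0, so that replicate 3 was the highest of its line in both. The value of E6.2 turned from 0.22 to -0.15, and that of E7.2 from 0.02 to -0.26, without both of these libraries.

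*Fadd* (ENSMUSG00000031077, chr7:144577318-144582463, minus strand), which links the receptor to caspase-8, had the smallest share of its sum of squares between lines. Line means ran from 13.5 ± 1.06 CPM (SD, n = 3) in parental cells to 15.9 ± 1.38 in E6.1, and 10.3% of its sum of squares over the 15 libraries lay between lines. Its libraries ranged from 9.86 CPM in E6.2 replicate 3 to 19.6 in E6.2 replicate 2, and all 3 of E6.1, from 14.3 to 16.7, lay above the parental ones, from 12.3 to 14.1. The log2 fold changes were 0.24, 0.17 and 0.12 for E6.1, E6.2 and E7.1 (adjusted p = 0.956, 0.747 and 0.797 by the edgeR quasi-likelihood test) and 0.12 in E7.2. With both deviating libraries left out, E6.2 was at 0.40 (adjusted p = 0.163) and E7.2 at 0.25. An antisense gene, *Faddos*, overlaps its exons, but held at most 12 counts in any library.

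*Ripk1* (ENSMUSG00000021408, chr13:34002363-34035170, plus strand), the kinase that joins TNF receptor complexes and can lead to survival, apoptosis or necroptosis, was highest in E7.1. That clone had 26.3, 19.4 and 21.6 CPM, against 18.4, 15.5 and 16.1 in parental cells, a log2 fold change of 0.43 (SE 0.18, adjusted p = 0.193 by the edgeR quasi-likelihood test), called without both deviating libraries (0.45, adjusted p = 0.0396). E6.1 ranged from 16.4 to 17.2 CPM, and E6.2 and E7.2 were highest in replicate 3 (20.1 and 22.7 CPM). Their log2 fold changes were 0.03 and 0.19, and -0.12 and 0.08 without both of these libraries. Exons of *Ripk1* overlap those of *Serpinb6a* on the other strand and of *Gm17084*, and pairs in the overlap were left out by the counting.

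*Bid* (ENSMUSG00000004446, chr6:120891930-120916853, minus strand), the BH3 protein that connects caspase-8 to mitochondria, had 83.0% of its sum of squares over the 15 libraries between lines, the largest share of the 8 genes. E7.1 had 100, 84.6 and 82.0 CPM and E7.2 had 80.6, 81.2 and 62.1. Parental libraries had 68.3, 54.8 and 55.7 CPM and E6.1 had 57.0, 67.7 and 60.1, while E6.2 had 51.5, 49.3 and 42.3. All E7.1 libraries thus lay above, and all E6.2 libraries below, those of parental cells.

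Against parental cells the log2 fold change of *Bid* was 0.05 for E6.1, -0.32 for E6.2 (SE 0.15) and 0.58 for E7.1 (SE 0.15, 95% confidence interval 0.27 to 0.89), with adjusted p values of 0.994, 0.365 and 0.0619 by the edgeR quasi-likelihood test. The E7.2 value was 0.32, and 0.48 without both deviating libraries. Replicate 3 of E7.2, at 62.1 CPM, lay within the parental range. E7.1 was called by DESeq2's Wald test (adjusted p = 0.00936), by edgeR's likelihood ratio test (0.0224), without both deviating libraries (0.60, adjusted p = 0.00956), without parental replicate 1 (0.70, adjusted p = 0.0225), and without E6.2 or E7.2 replicate 3 (0.0291 and 0.0279). In the test over parental, E6.1, E6.2 and E7.1, *Bid* differed among lines (adjusted p = 0.0117), a call lost only without E7.1 replicate 1 among the 15 such fits (0.0629). E7.1 was 1.87-fold higher than E6.2 (log2 difference 0.90, SE 0.15, adjusted p = 0.00295), which held without each single library in turn. E7.2 was 1.57-fold higher than E6.2 (0.65, SE 0.15, adjusted p = 0.0330), a call lost without E6.1 replicate 3 (0.0539), E6.2 replicate 2 (0.0576) or E7.2 replicate 1 or 2 (0.141 and 0.154). Exons of *Bid* overlap those of *Bcl2l13* on the other strand.

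*Xiap* (ENSMUSG00000025860, chrX:42059679-42109656, plus strand), an inhibitor of initiator and executioner caspases, had a lower mean in each clone with no call. Parental libraries had 227, 228 and 207 CPM. E6.1 had 192, 185 and 202 CPM, E6.2 had 181, 222 and 154, E7.1 had 202, 161 and 199, and E7.2 had 180, 167 and 167. The log2 fold changes were -0.19, -0.25 and -0.23 for E6.1, E6.2 and E7.1 (adjusted p = 0.930, 0.469 and 0.372 by the edgeR quasi-likelihood test) and -0.36 in E7.2, and a single clone library, E6.2 replicate 2, reached the parental range. When both deviating libraries were left out E6.2 was at -0.13 (adjusted p = 0.561), and with single libraries left out it ran from -0.40 to -0.11.

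**Figure D3:**
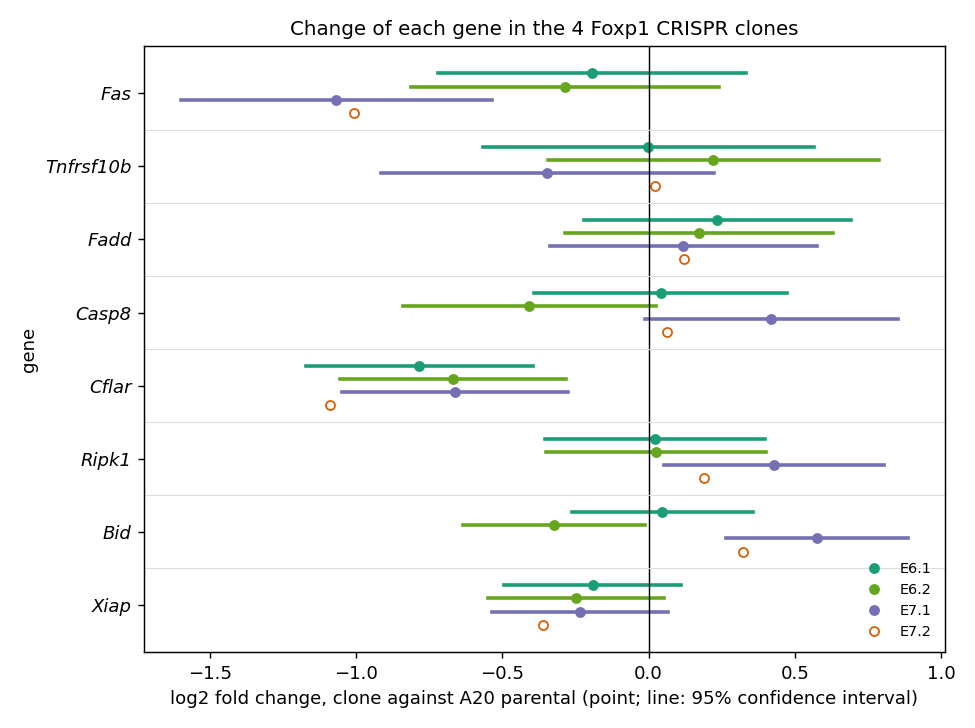
Log2 fold change (x axis) of each gene (y axis) in the 4 clones against parental cells, with points for the estimates and lines for 95% confidence intervals. E7.2, which chose *Cflar*, has open points without intervals. *Cflar* lies between -1.09 and -0.66 in the clones, *Fas* near -1 in both E7 clones only, and *Bid* between -0.32 and 0.58.

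Counted over the 8 genes, 0 were called for E6.1, 0 for E6.2 and 0 for E7.1 by edgeR's quasi-likelihood test, where 0.324%, 1.17% and 1.22% of all tested genes were called. At an unadjusted p under 0.05 the counts were 1, 2 and 4 of 8, against 6.71%, 13.1% and 20% of all genes. These were *Cflar* in E6.1, *Cflar* and *Bid* in E6.2, and *Fas, Cflar, Ripk1* and *Bid* in E7.1. DESeq2's Wald test called 1, 1 and 3, against 1.12%, 2.87% and 8.71%. The calls were *Cflar* alone in E6.1 and E6.2, and *Fas, Cflar* and *Bid* in E7.1. *Cflar* was chosen with the same parental libraries, so that its part in these counts is not independent of the choice. In E7.2, 1 of 8 was called, *Cflar*, by the comparison that chose it (0.295% of all genes). Without both deviating libraries the count in E7.1 became 5 (*Fas, Casp8, Cflar, Ripk1* and *Bid*), in a fit that called 15.2% of all genes in that clone. All libraries of a clone were above, or all below, those of parental cells for 3 of 8 genes with E6.1, 3 with E6.2 and 7 with E7.1, against 22.5%, 14.7% and 32% of all genes. In E7.1 these were 4 lower, *Fas, Tnfrsf10b, Cflar* and *Xiap*, and 3 higher, *Casp8, Ripk1* and *Bid*. The counts of E6.1, E6.2 and E7.1 each hold *Cflar*, with the parental libraries that chose it. The median log2 fold change of the 8 genes was 0.01 for E6.1, -0.27 for E6.2 and -0.06 for E7.1, beside -0.00, 0.06 and -0.02 over all tested genes.

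Among parental, E6.1, E6.2 and E7.1, 2 of 8 genes were called, *Bid* and, with the parental libraries that chose it, *Cflar*, against 7.41% of all genes, and without both deviating libraries *Fas, Casp8* and *Ripk1* joined them (30.2% of all genes). *Fas* and *Casp8* followed with adjusted p values of 0.0571 and 0.0777. The *Fas* test passed without parental replicate 1 (0.0327), E6.1 replicate 2 (0.0371) or E6.2 replicate 3 (0.0392), and the *Casp8* test without E7.2 replicate 3 (0.00435). Of the 6 pairs of clones, E7.1 and E6.2 differed in 16.9% of all tested genes and in 3 of the 8, *Fas* lower and *Casp8* (1.78-fold, log2 difference 0.83, SE 0.20, adjusted p = 0.0181) and *Bid* higher in E7.1. The *Casp8* call was lost without E7.1 replicate 1 (0.78, adjusted p = 0.0687). E7.2 and E6.2 differed in 1, *Bid*, against 2.24% of all genes, and the other 4 pairs gave no call by this test (1.24% of all genes for E6.2 and E6.1, 3.24% for E7.1 and E6.1, 0.352% for E7.2 and E6.1, 0.590% for E7.2 and E7.1). For E7.1 and E6.1, *Fas* and *Bid* were called by DESeq2 (11.8% of all genes), by edgeR's likelihood ratio test (7.65%) and without parental replicate 1 or E6.2 replicate 3. In that pair *Fas* alone was called with no filter (2.41%) or without E6.1 replicate 2, and *Bid* alone without E7.2 replicate 3. Without both deviating libraries E7.1 and E6.2 differed in *Fas, Casp8, Ripk1* and *Bid* (34.9% of all genes called), E7.1 and E6.1 in these 4 genes as well (17.8%), and E7.2 and E6.2 in *Casp8* and *Bid* (17%).

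Across the 15 libraries, which share lines, depth and preparation, *Casp8* and *Bid* moved together (r = 0.857 on log2 CPM, n = 15) and *Casp8* and *Tnfrsf10b* moved oppositely (r = -0.831). *Fas* ran with *Cflar* (r = 0.668) and against *Bid* (r = -0.736). In replicate 3 of both E6.2 and E7.2, *Tnfrsf10b* and *Ripk1* were the highest and *Fadd, Casp8* and *Bid* the lowest of the 3 libraries of the line, and without both, an alternative chosen after the data were seen, these 4 correlations were 0.966, -0.598, 0.663 and -0.871 in the same order (n = 13). The share of the sum of squares that lay between lines was 78.8% for *Cflar*, 70.8% for *Fas*, 58.6% for *Casp8* and 25.3% for *Tnfrsf10b*. Both the *Cflar* share and the correlation of *Cflar* with *Fas* use the parental and E7.2 libraries that chose *Cflar*. They are not independent of that choice.

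The 5 genes most like *Cflar* over the 15 libraries, among those with a mean of at least 5 CPM, were *Ehbp1* (r = 0.882), *Ralgapa1* (0.833), *Cep68* (0.830), *Lyst* (0.818) and *Ahr* (0.802). *Lyst*, the gene of a regulator of lysosome traffic, had 84.2 ± 4.01 CPM (SD, n = 3) in the parental line and means between 46.7 and 58.3 in the clones. *Cep68*, a centrosome gene, had 121 ± 6.01 CPM in the parental line and means between 109 and 115 in the clones. *Ahr*, the aryl hydrocarbon receptor, was at 7.86 ± 0.638 CPM in the parental line, with clone means between 5.03 and 5.74. The 15 libraries include the parental and E7.2 ones that chose *Cflar*. A higher level in parental cells than in the clones is thus built into the choice of these genes, and nothing is read from it.

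The other genes of the pathway were read from 8 lists by role, 63 genes in all, of which 53 passed the filter. At the receptor level, *Fasl* and *Tnfsf10*, the genes of Fas ligand and TRAIL, had at most 2 and 4 counts in any library, and *Tnfrsf1a*, the TNF receptor with a death domain, at most 4. *Mlkl*, the executor of necroptosis, had at most 5. *Fasl* thus stayed under the floor of 3 counts in every library, and the other 3 genes were near it. *Tnf* and *Lta* were present at 7.55 ± 1.64 and 12.1 ± 1.81 CPM (SD, n = 3) in parental cells, and *Tnfrsf1b*, the TNF receptor without a death domain, at 10.5 ± 2.35.

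Of the 53 genes, 0 were called for E6.1, 1 for E6.2 and 1 for E7.1 by edgeR's quasi-likelihood test (0.324%, 1.17% and 1.22% of all tested genes), and 6, 11 and 12 had an unadjusted p under 0.05 (6.71%, 13.1% and 20% of all genes). DESeq2's Wald test called 0, 1 and 7, against 1.12%, 2.87% and 8.71%. Without both deviating libraries edgeR's quasi-likelihood test called 0, 1 and 12, against 0.924%, 2.26% and 15.2%. The genes named next are those called by that test on all libraries. The gene called in E6.2 was *Fcmr*, the Fc receptor for IgM and once described as an inhibitor of Fas signalling, which fell from 72.3 ± 1.11 to 32.8 ± 2.11 CPM (log2 fold change -1.14, SE 0.13, adjusted p = 0.000278). Its level was 71.8 ± 9.40 CPM in E7.1 and 106 ± 13.7 in E7.2, where the log2 fold change was 0.55. The gene called in E7.1 was *Tnfrsf26*, a TNF receptor family gene from the list of other death receptors and decoys. It fell from 52.3 ± 4.26 to 31.4 ± 0.882 CPM (-0.73, SE 0.12, adjusted p = 0.0113) and stood at 51.5 ± 5.70 in E7.2. Its call was lost without parental replicate 2 or 3 (0.0742 and 0.0872) or E7.1 replicate 1 or 3 (0.0737 and 0.0722), whereas that of *Fcmr* held in all 15 such fits.

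In the mitochondrial arm downstream of BID, 6 genes were tested, and the values of this paragraph come from the fit of all 15 libraries. Of these genes, 4 had an unadjusted p under 0.05 in E7.1, each higher, where 9.94% of all genes were higher at that level. None of the 6 was called. Their median log2 fold change was 0.48 in E7.1, beside -0.02 over all tested genes, 0.05 in E6.1, -0.17 in E6.2 and 0.10 in E7.2. *Bak1*, a pore former of the outer membrane, had a log2 fold change of 0.63 (SE 0.16, adjusted p = 0.0675) in E7.1 and *Bax* of 0.46 (SE 0.14, adjusted p = 0.0977). Among the 7 executioner caspases and substrates *Parp1* had the largest value, 0.56 (SE 0.18, adjusted p = 0.104) in E7.1. *Ripk3*, the necroptosis kinase, had 0.73 (SE 0.19, adjusted p = 0.0694) there and 0.63 in E7.2. Of the 13 complex I editors and kinases, 3 were lower at an unadjusted p under 0.05 in E7.1 and none was called, where 10% of all genes were lower at that level. Their median there was -0.18. Among them *Tnip1* had 0.81 (SE 0.29, adjusted p = 0.261) in E6.2, where its SD was 18.4 around a mean of 35.7 CPM. *Birc6*, an inhibitor of apoptosis protein, had -0.57 in E7.2, and among the ligands *Tnf* had 0.64 (SE 0.29, adjusted p = 0.228) in E7.1.

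**Figure D4:**
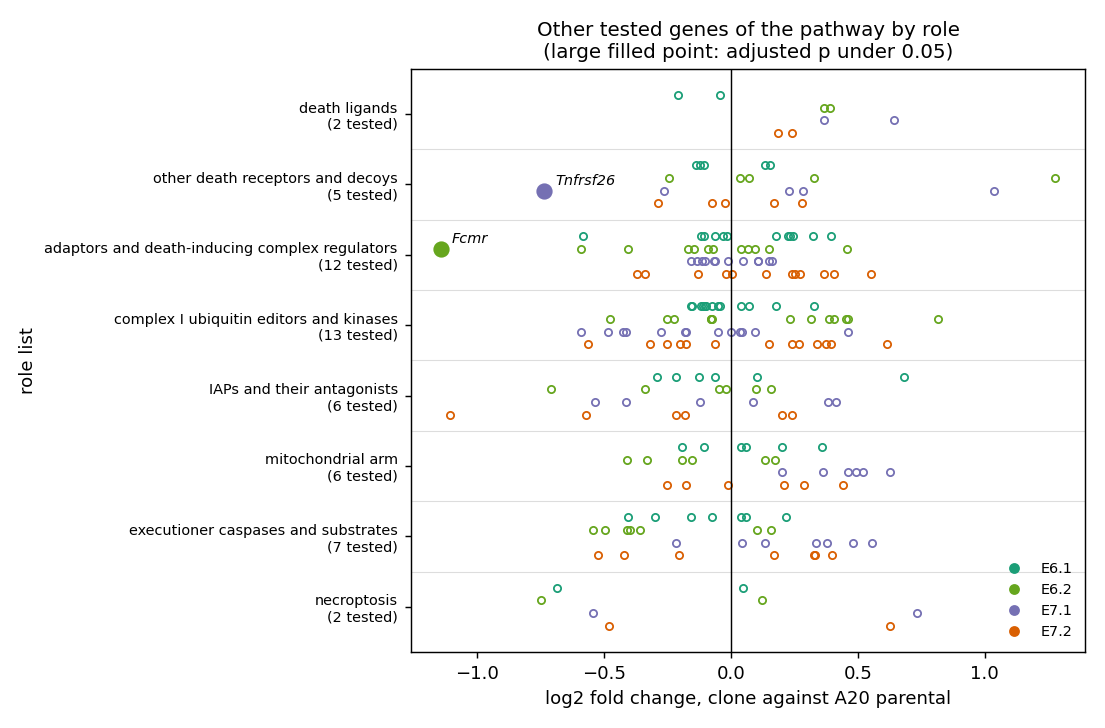
Log2 fold change against parental cells (x axis) of the 53 other tested genes of the pathway, grouped by role list (y axis), with a colour per clone and a point per gene. Large filled points mark the 2 genes called at an adjusted p under 0.05, *Tnfrsf26* in E7.1 and *Fcmr* in E6.2. The 6 mitochondrial genes lie above 0 in E7.1 with none called, where the median over all tested genes was -0.02.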

How the data were processed

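The authors deposited raw counts of read pairs per gene for each of the 15 libraries. Per the file headers and labels, reads were aligned with HISAT to GRCm38 (mm10 in the labels) with ERCC spike-ins and counted with featureCounts 1.5.0, without strand and without pairs that matched several places or genes. The 92 spike-ins had a total count of 0 and were left out. Replicate numbers come from the labels. No 2 libraries of a line were copies (chi-square per degree of freedom 31.7 or more).

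In R 4.3.3, edgeR 4.0.16 was run with filterByExpr (13904 genes kept), TMM normalization and the quasi-likelihood test (glmQLFit and glmQLFTest) on all 15 libraries with line as the only factor, with Benjamini-Hochberg adjustment over all tested genes in each comparison and a call at an adjusted p under 0.05. The method was tested on simulated data. Levels are TMM-normalized CPM. The ratio of *Cflar* to *Casp8* was not tested. Correlations used log2 CPM with a prior count of 2. Symbols came from a table of gene names, and promoters from RefSeq GRCm38.p6.

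The genes, role lists and tests were chosen with earlier results of these data known. Genes named are the 8 members, pathway genes called in E6.1, E6.2 or E7.1, the gene with the largest change in each role list with a mean of at least 1 CPM, the 5 genes most like *Cflar*, and *Foxp1*. Other ligands, receptors, *Mlkl, Bax* and neighbours were named after their values were seen. Alternatives were DESeq2 size factors, no filter, DESeq2 1.42.0's Wald test (a likelihood ratio test for the 4 lines), edgeR's likelihood ratio test, the newer quasi-likelihood method, fits of 6 libraries, a replicate block, and the removal of each library or of both deviating libraries.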

Additional observations from a re-analysis of the deposited data

Results flagged for a closer look

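Between clones, 4 differences among the 8 genes passed the test of the difference itself (edgeR's quasi-likelihood test, Benjamini-Hochberg adjustment within each pair of clones). In E7.1 minus E6.2 the log2 difference was -0.78 for *Fas*, 0.83 for *Casp8* and 0.90 for *Bid*, and in E7.2 minus E6.2 it was 0.65 for *Bid*. Of all tested genes, 16.9% and 2.24% were called in these 2 pairs. The *Fas* call was lost in 9 of the 15 fits with 1 library removed. In each of the first 3, all libraries of E7.1 lay on one side of those of E6.2, and for *Bid* all libraries of E7.2 lay above those of E6.2. E6.2 holds 1 of the 2 libraries that stood apart, and its part in these differences was not tested beyond the fits without it. Groups of 3 libraries are too small for a check on single outlying libraries.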

How the results depend on the processing

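The limits of these results are the 3 libraries per line, the single clone behind each edited line and calls that lie close to the threshold. Each member's log2 fold change moved by at most 0.04 under another scaling, filter, test or block with all libraries kept, whereas calls moved more. Counts of the 8 genes called were 0 for E6.1, 0 for E6.2, 0 for E7.1, 1 for E7.2, 2 in the test over the 4 lines other than E7.2 and 4 over pairs of clones. The other pathway genes called numbered 0, 1, 1 and 0 for the 4 clones in that order. With DESeq2 size factors, none of these counts changed by more than 1.5 times, nor did those against parental cells in fits of the 6 libraries compared, which gave no test over the 4 lines or between clones. Counts of the 8 for E7.2 hold *Cflar* by its choice and are listed for completeness only. Where other counts hold *Cflar*, they share the parental libraries that chose it, and the counts of 1 for E6.1 and E6.2 below are that gene.

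With no filter on low counts, 1 of the 8 was called for E7.1 (1.38% of all genes) and 4 over the 4 lines (6.16%). DESeq2's Wald test called 1 for E6.1, 1 for E6.2, 3 for E7.1, 2 for E7.2 and 4 over the 4 lines. Of the other pathway genes it called 7 for E7.1 and 1 for E7.2. Its shares of all genes were 1.12%, 2.87%, 8.71%, 1.83% and 21.3% in that order. For edgeR's likelihood ratio test the counts were 1, 1, 3, 2 and 4, and 3 other pathway genes for E7.1 and 1 for E7.2. The shares of all genes were 0.899%, 2.24%, 5.38%, 1.13% and 16.7%. The newer quasi-likelihood method called 1 for E7.1 (1.73% of all genes). Without both deviating libraries 5 were called for E7.1 (15.2% of all genes), 5 over the 4 lines (30.2%) and 10 over pairs of clones (34.9%, 17.8% and 17% in the 3 pairs with a call). Of the other pathway genes, 12 were called for E7.1 and 1 for E7.2 (1.53% of all genes for E7.2). The shares of all genes called rose as well. The cause was not tested.

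Leaving out each library in turn gave 0 to 3 of the 8 for E7.1, 0 to 1 for E7.2, 0 to 3 over the 4 lines and 2 to 7 over pairs of clones, and 0 to 5 other pathway genes for E7.1 and 0 to 2 for E7.2. Shares of all genes were not counted for these fits. With the replicate block, 1 was called over the 4 lines, *Bid*, against 6.26% of all genes. *Cflar* was at an adjusted p of 0.0542 there (edgeR quasi-likelihood test), and *Fas* was not called in E7.1 minus E6.2 (0.0592). Numbers are not shown to pair the libraries, since same-numbered parental and clone libraries had deviations that correlated with r from -0.124 to 0.213, above 0.1 in 5 of 12 pairs.

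Some small values with no call turned sign. *Ripk1* in E6.2 was 0.03 and became -0.00230 without a filter and -0.12 without both deviating libraries. *Tnfrsf10b* in E6.1 was -0.00 and became 0.00540 without a filter, 0.00975 with the replicate block and 0.00404 without both deviating libraries. In E6.2 *Tnfrsf10b* became -0.15 without both, and in E7.2 it became -0.0148 with the block and -0.26 without both. Over the fits that left out single libraries, the ranges that crossed 0 were -0.409 to 0.0297 for *Fas* in E6.1, -0.0600 to 0.425 for *Fadd* in E6.2, -0.0934 to 0.354 for *Casp8* in E7.2, -0.0247 to 0.0961 for *Ripk1* in E6.1, -0.0917 to 0.157 for *Ripk1* in E6.2, -0.0249 to 0.154 for *Bid* in E6.1, and for *Tnfrsf10b* -0.102 to 0.0820 in E6.1, -0.12 to 0.42 in E6.2 and -0.26 to 0.21 in E7.2. The mean log2 difference of the *Cflar* to *Casp8* ratio over the clones stayed between -0.91 and -0.78.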
